A study of Solanum lycopersicum with 9 samples.

Results

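The sites described here are the WT H3K9me2 peaks of tomato leaf at which no peak of any profiled histone mark was called in *ddm1*. A WT H3K9me2 peak on chromosomes 1 to 12 belonged to the set when it shared no base pair with any peak of the 5 *ddm1* lists, which were H3K9me2, H3K27me1, H3K9ac and H3K27me3 replicates 1 and 2. There were 5260 such sites among 9767 WT H3K9me2 peaks (53.9%, 95% Wilson interval 52.9 to 54.8), and they are called unreplaced peaks below. The name refers to peak lists only: signal that stayed under the calling threshold, and marks other than the 4 profiled, are not seen.

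The *ddm1* plants carried mutations in both tomato DDM1 genes (*Slddm1a/Slddm1b*), and the WT was cultivar M82. Plants of both genotypes were 1 month old, and the fourth leaf was used for chromatin. Chromatin immunoprecipitation followed by sequencing (ChIP-seq) gave 1 peak list for each genotype and mark, except H3K27me3 in *ddm1*, which had 2. The methods mention replicate libraries for each genotype, and whether a list pools them is not given in the sources used here. Whole leaves hold many cell types, so a missing peak can mean less of the mark per cell or fewer cells that carry it, and these cannot be told apart.

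H3K9me2, dimethylation of lysine 9 of histone H3, marks constitutive heterochromatin in plants and is found mostly over transposable elements. In Arabidopsis it is written by the methyltransferase KRYPTONITE and its relatives at DNA that carries CHG methylation, while the methyltransferase CMT3 binds H3K9me2 and methylates CHG sites, so that each mark maintains the other. DDM1 is a nucleosome remodeller that lets DNA methyltransferases reach heterochromatic DNA. H3K27me1 is a second mark of constitutive heterochromatin, H3K27me3 is the Polycomb mark of facultative heterochromatin, and H3K9ac, an acetylation, marks active chromatin.

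The 5 *ddm1* lists held between 7361 and 76513 peaks, and the WT lists of the 4 marks between 6044 and 42622. The lists carry no read totals, so the depth of each library is unknown. Replicate 2 of *ddm1* H3K27me3 is labelled *ddm1*, but its deposited name and peak names read WT. It was used as labelled and covered 128 Mb, against 23.6 Mb in replicate 1, so main results that rest on it are also given without it. Background shares over all 5 lists and the splits by quintile, relative position, chromosome and neighbour distance are given only with it. The shortest peak of the *ddm1* H3K9me2 list was 500 bp, against 700 bp in the WT H3K9me2 list. No group compared had enough lists for a test. Intervals are 95% intervals for counting error, treat peaks as independent and say nothing of variation between plants.

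The first question was how WT H3K9me2 peaks were divided among the *ddm1* marks. H3K9me2 itself was called again in *ddm1* at 1540 WT peaks (15.8%, 15.1 to 16.5) and was not called at 8227 (84.2%). Unreplaced peaks made up 63.9% (62.9 to 65.0) of those 8227, so most of the WT sites without a *ddm1* H3K9me2 peak had no other *ddm1* peak either. The same held for most tiles of 1 kb outside WT H3K9me2 peaks. Of 770851 such tiles without *ddm1* H3K9me2, 518658 had no other *ddm1* peak, so the trait is not particular to WT H3K9me2 sites. In length, unreplaced peaks held 5.60 Mb of the 10.9 Mb under WT H3K9me2 peaks, or 51.3%. These values follow from the rule that chose the sites and are a description.

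The marks that kept the other 4507 peaks out of the set were of unequal weight. *ddm1* H3K9ac shared bases with 1477 WT H3K9me2 peaks (15.1%), H3K27me1 with 1038 (10.6%), H3K27me3 replicate 1 with 219 (2.24%) and replicate 2 with 1469. A single list decided the matter for 3398 peaks, which touched only that list: 1147 for H3K9me2, 880 for H3K9ac, 748 for H3K27me3 replicate 2, 590 for H3K27me1 and 33 for H3K27me3 replicate 1. A WT H3K9me2 peak that met *ddm1* H3K27me3 replicate 2 was usually covered whole, with a median of 100% of its length, whereas H3K27me1 covered a median of 18.8% and H3K9ac 30.2%. Without replicate 2 of H3K27me3 the set grew to 6008 peaks (61.5%), and without replicate 1 to 5293 (54.2%).

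The same rule gave a background for the share of 53.9%. Of the WT peaks of the other marks, 49.9% for H3K27me1, 47.7% for H3K27me3 and 25.6% for H3K9ac shared no base with any *ddm1* list. Of 781543 tiles of 1 kb outside WT H3K9me2 peaks, 66.4% were free of *ddm1* peaks. WT H3K9me2 sites were thus free of *ddm1* peaks less often than the chromosomes around them, not more often. The *ddm1* lists differed in this respect. *ddm1* H3K9me2 was absent from 84.2% of WT H3K9me2 peaks and 98.6% of tiles, and H3K27me1 from 89.4% and 98.8%. *ddm1* H3K9ac was absent from 84.9% of the peaks and 87.1% of tiles. H3K27me3 was absent from 97.8% and 93.2% in replicate 1 and from 85% and 79.3% in replicate 2. *ddm1* H3K9me2 and H3K27me1 peaks touched WT H3K9me2 peaks 11.5 and 8.85 times as often as tiles, H3K9ac 1.17 times, and H3K27me3 0.331 times in replicate 1 and 0.726 times in replicate 2.

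Unreplaced peaks were narrower and weaker in WT than the other WT H3K9me2 peaks. Their median width was 935 bp (925 to 945), against 1027 bp (1014 to 1043) for the others, a difference of -92 bp (-111 to -75.6). A wide peak has more room to touch another peak, so width is not independent of the rule. Widths overlapped broadly: 10% of unreplaced peaks were under 732 bp and 10% over 1566 bp, against 747 bp and 1868 bp for the others. The share of unreplaced peaks was 60.5% in the narrowest quintile of WT H3K9me2 peaks and 42.7% in the widest. Among peaks of at least 2 kb it was 36.6% (32.7 to 40.8), or 196 of 535. The difference in width was -127 bp without H3K27me3 replicate 2. It turned to 11 bp (-13.2 to 30.4) when a peak counted as replaced only if a *ddm1* list covered at least 50% of it.

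Strength in WT followed the same order. The rule did not use it but is not independent of it, since peaks called again as H3K9me2 in *ddm1*, which it removes, were the strongest. The order did not hold against every class of other peaks given below. The fold enrichment that the authors' peak caller gave, a ratio to the local background, had a median of 2.08 (2.08 to 2.09) at unreplaced peaks and 2.17 (2.16 to 2.18) at the others, a difference of -0.0861 (-0.0984 to -0.0709). The median −log10 q was 1.77, against 1.87. Within each quintile of width the median fold was lower at unreplaced peaks, by values between -0.147 and -0.0449, and none of the 5 intervals reached 0. The share of unreplaced peaks was 62.9% in the weakest quintile by fold and 40.0% in the strongest. Of the WT H3K9me2 peaks with a fold of at least 3, 13 were unreplaced and 55 were not. The difference in fold was -0.0937 without H3K27me3 replicate 2.

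**Figure D1:**
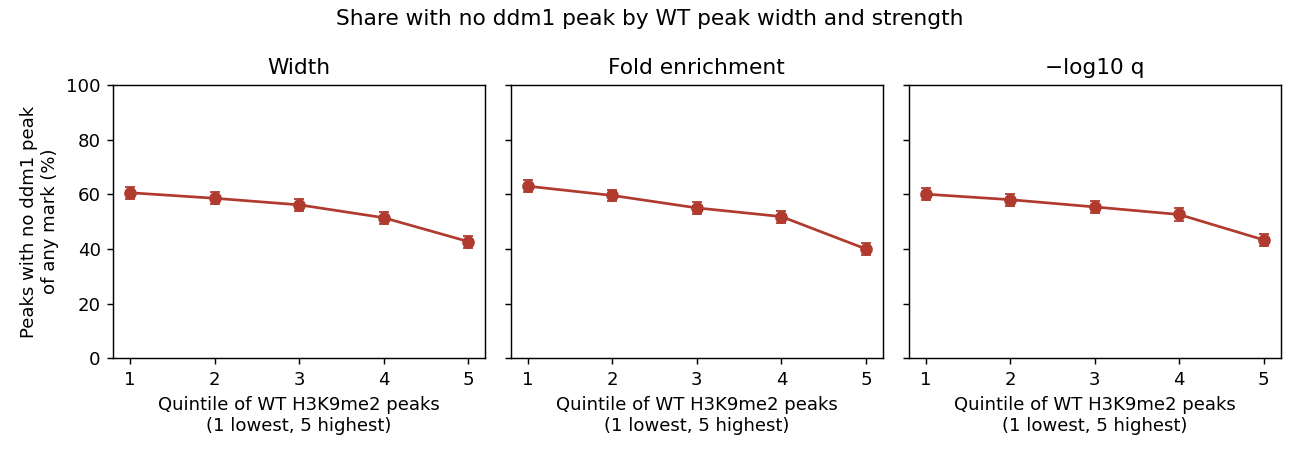
Share of WT H3K9me2 peaks with no ddm1 peak (y axis, %) by quintile of width, fold enrichment and −log10 q in WT (x axis). Points are shares and bars are 95% Wilson intervals. All 3 panels fall from near 60% in quintile 1 to 42.7%, 40.0% and 43.3% in quintile 5.

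The set also held wide and strong sites. The widest unreplaced peak lay on chromosome 6 from 7133915 to 7137510 (3596 bp, fold 2.27), and its nearest *ddm1* peak, of H3K27me1, was 5079 bp away. The next were on chromosome 5 from 62430378 to 62433716 (3339 bp) and on chromosome 12 from 52385124 to 52388440 (3317 bp), 1011 bp and 7643 bp from the nearest *ddm1* peak. Both of these also had H3K27me1 as the nearest *ddm1* mark. The other wide sites were closer to a *ddm1* peak. On chromosome 10 from 34583618 to 34586911 (3294 bp) *ddm1* H3K9me2 began 25 bp away, and on chromosome 1 from 5177959 to 5181221 (3263 bp) *ddm1* H3K9ac began 124 bp away.

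The strongest unreplaced peak was on chromosome 4 from 5535386 to 5536303, with a fold of 3.32 and a −log10 q of 4.95. H3K27me3 replicates 1 and 2 had peaks 486 bp and 1134 bp away, and the nearest *ddm1* H3K9me2 peak was 61235 bp away. The other 4 of the strongest 5 had folds of 3.15 to 3.17. They lay on chromosome 2 from 38490464 to 38491426, chromosome 8 from 47000379 to 47001125, chromosome 3 from 54209890 to 54210830 and chromosome 1 from 38925238 to 38926064. Their nearest *ddm1* peaks were H3K27me3 replicate 2 at 9310 bp, H3K9me2 at 1185 bp, H3K9ac at 2013 bp and H3K27me1 at 63425 bp. Among these strong sites the gap to the nearest *ddm1* peak thus ran from under 1 kb to over 50 kb, and no single mark was nearest to all of them.

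Unreplaced peaks carried the second constitutive mark less often in WT. A WT H3K27me1 peak shared bases with 264 of 5260 unreplaced peaks (5.02%, 4.46 to 5.64) and with 547 of 4507 others (12.1%, 11.2 to 13.1), a difference of -7.12 percentage points (-8.25 to -6.01). The difference was -7.30 points without H3K27me3 replicate 2. It was larger, at -13.0 and -12.0 points, with a q of 0.01 or lower in all lists and in the WT list alone. It was smaller, at -5.35 points, when a *ddm1* list had to cover at least 50% of the WT peak. It was also smaller, at -5.88 points, when peaks within 1000 bp of a *ddm1* peak left the set too. The difference lay below 0, interval included, in every quintile of width, of fold and of −log10 q. H3K27me1 peaks recur in *ddm1*, and the rule uses them, so the comparison was repeated with the 3469 other peaks that had no *ddm1* H3K27me1 peak. Of these, 7.55% had WT H3K27me1, and the difference was -2.53 points (-3.62 to -1.49). The 264 unreplaced peaks with both constitutive marks in WT were wider and stronger than the remaining 4996, with a median width of 1052 bp against 929 bp and a median fold of 2.24 against 2.08. Facultative and active marks were nearly absent from both sets in WT. WT H3K27me3 touched 7 unreplaced peaks and 11 others, and WT H3K9ac touched 0 of either, which allows shares of up to 0.0730% and 0.0852%.

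The other WT H3K9me2 peaks were then divided by the *ddm1* mark they met, taking H3K9me2 first, then H3K9ac, H3K27me1 and H3K27me3. These classes held 1540, 1456, 640 and 871 peaks. In WT fold the unreplaced peaks, at 2.08, lay above the class that met H3K9ac (2.05), below the class that met H3K27me3 alone (2.12), and well below the classes that met H3K27me1 (2.27) and H3K9me2 (2.302). The difference from the H3K9ac class was 0.0307 (0.0156 to 0.0481). In width the unreplaced peaks, at 935 bp, lay above the class that met H3K27me3 alone (901 bp), by 34 bp (1.43 to 52.9). They lay below the classes that met H3K27me1 (1027.5 bp), H3K9ac (1035 bp) and H3K9me2 (1109 bp). WT H3K27me1 was found at 7.62% of the H3K9ac class, 9.53% of the H3K27me3 class, 13.9% of the H3K9me2 class and 21.7% of the H3K27me1 class, each above the 5.02% of unreplaced peaks by more than counting error. The nearest WT H3K9ac peak was a median of 42.0 kb (39.0 to 44.7) from unreplaced peaks. It was 42.3 kb (39.3 to 48.2) from the H3K9ac class, 41.1 kb (32.7 to 49.9) from the H3K27me1 class, 64.9 kb (57.7 to 74.7) from the H3K27me3 class and 10.7 kb (9.46 to 11.9) from the class in which H3K9me2 was called again. Without H3K27me3 replicate 2 the H3K27me3 class shrank to 123 peaks, with a median fold of 2.16 and WT H3K27me1 at 13.8%, against 5.49% of the unreplaced peaks so defined, while the other classes kept their members.

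**Figure D2:**
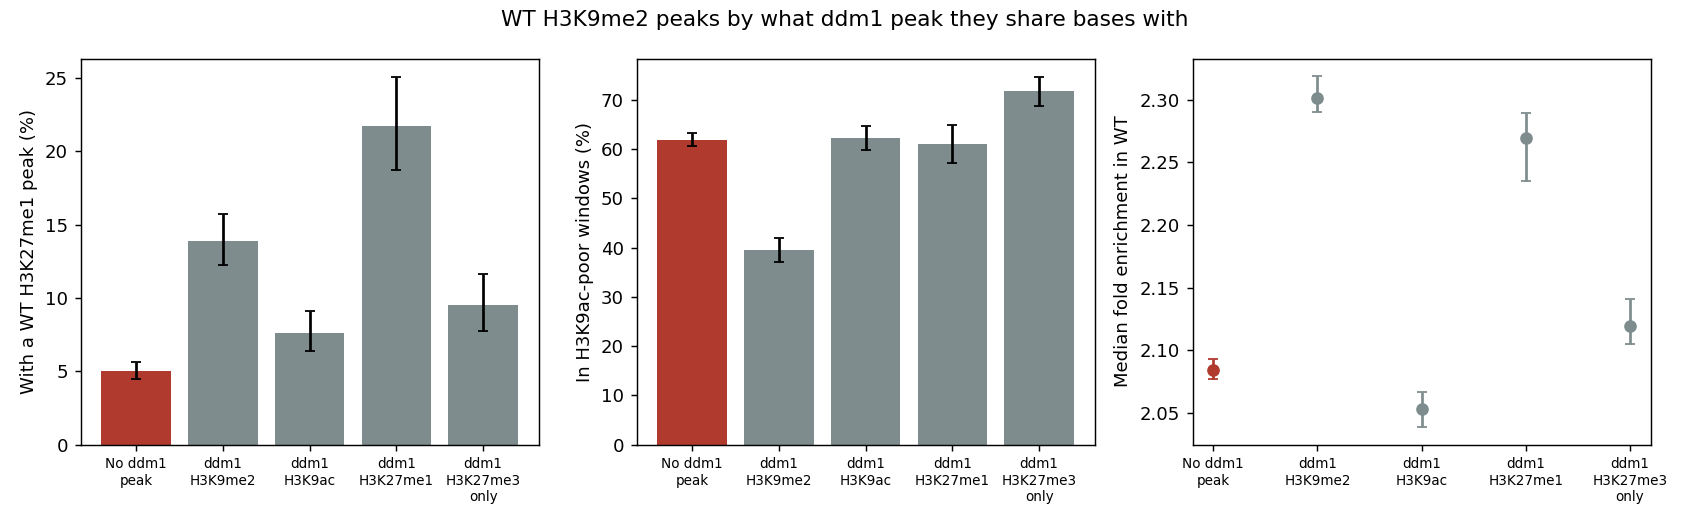
WT H3K9me2 peaks with no ddm1 peak (red) and those that share bases with a ddm1 peak, by mark (grey). The panels give the share with a WT H3K27me1 peak (%), the share in H3K9ac-poor windows (%) and the median fold enrichment in WT (axis not from 0), with 95% intervals for counting error. The red bar is lowest in the first panel, at 5.02%.

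The study compares gene-rich with gene-poor regions. Without an annotation of this assembly these were approximated by windows of 1 Mb, called H3K9ac-poor when they held at most 15 WT H3K9ac peaks, the median, and H3K9ac-rich otherwise. H3K9ac-poor windows held 61.9% (60.6 to 63.2) of unreplaced peaks and 56.2% (54.7 to 57.6) of the others, a difference of 5.70 percentage points (3.75 to 7.65). The difference was 10.5 points without H3K27me3 replicate 2. By position alone, the central 50% of the chromosomes held 60.9% of unreplaced and 55.2% of other peaks. The classes of other peaks were not alike: 39.5% of those with H3K9me2 in *ddm1* lay in H3K9ac-poor windows, against 62.3% of those with H3K9ac, 61.1% of those with H3K27me1 and 71.8% of those with H3K27me3 alone. Unreplaced peaks differed from the H3K9ac class by -0.412 points (-3.20 to 2.42) and from the H3K27me1 class by 0.788 points (-3.14 to 4.84). Without H3K27me3 replicate 2 the share was 63.3% of unreplaced peaks and 63.4% (54.6 to 71.4) of the H3K27me3 class. Within quintiles of WT fold the difference between unreplaced and other peaks ran from -0.850 to 5.09 points, and its interval lay above 0 in 2 of the 5 quintiles.

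Read the other way, 56.2% (55.0 to 57.5) of the 5787 WT H3K9me2 peaks in H3K9ac-poor windows were unreplaced and 50.4% (48.8 to 51.9) of the 3980 in H3K9ac-rich windows. The share of tiles free of *ddm1* peaks was 67% in H3K9ac-poor and 65.7% in H3K9ac-rich windows. By relative position the share of unreplaced peaks was between 56.3% and 59.7% in the 4 bins from 20% to 60% of the chromosome length and lowest, at 38.7% (32.7 to 45.0), in the last bin, which held 238 peaks. By chromosome it ran from 47.8% (44.7 to 50.9) on chromosome 1 to 57.9% (54.5 to 61.3) on chromosome 3. Unreplaced peaks occurred on all 12 chromosomes at 5.07 to 7.68 per Mb.

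**Figure D3:**
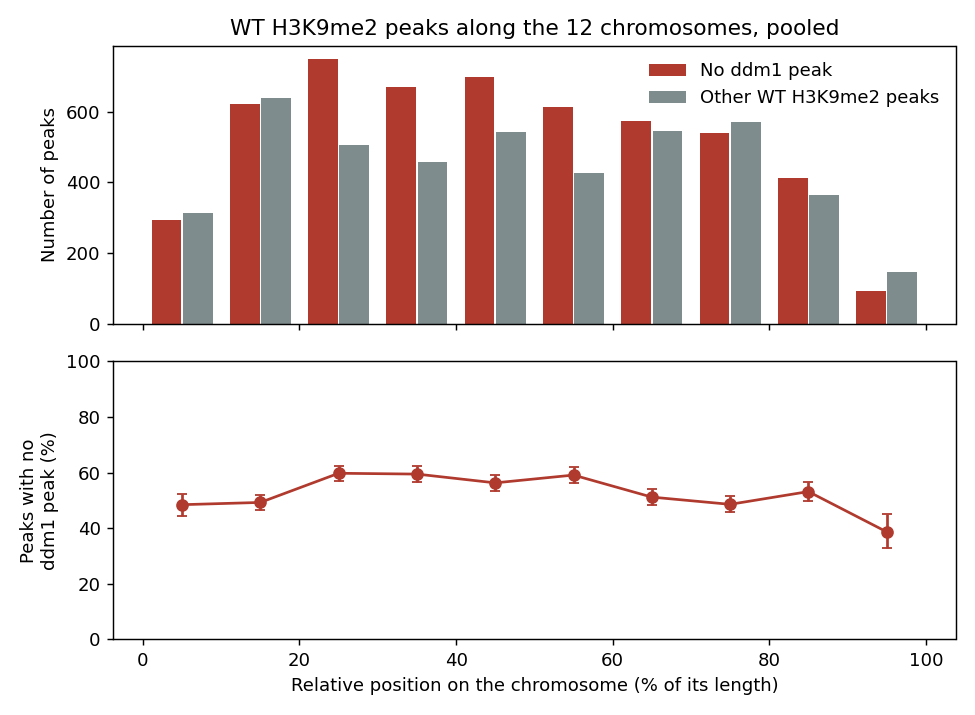
Number of WT H3K9me2 peaks with no ddm1 peak (red) and of other WT H3K9me2 peaks (grey) by relative position on the chromosome, 12 chromosomes pooled (top), and the share with no ddm1 peak with 95% Wilson intervals (bottom). The share is highest, at 59.7%, from 20% to 30% of the length and lowest, at 38.7%, in the last bin.

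Unreplaced peaks lay next to each other. The nearest WT H3K9me2 peak was itself unreplaced for 62.0% (60.6 to 63.3) of unreplaced peaks and for 45.2% (43.7 to 46.7) of the others, a difference of 16.8 percentage points (14.8 to 18.7). Neighbours share surroundings, and 1 wide *ddm1* peak can touch several WT peaks. Without H3K27me3 replicate 2, which held the widest peaks, the difference was 11.3 points. It was 27.9 points for neighbours under 2 kb apart and 11.8 points for those at least 50 kb apart. It was 21.3 points in H3K9ac-poor windows and 9.69 points in H3K9ac-rich windows. The spacing itself was similar, with a median gap to the nearest WT H3K9me2 peak of 20.6 kb (19.5 to 21.4) for unreplaced and 21.7 kb (20.6 to 22.8) for other peaks.

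Along the chromosomes, unreplaced peaks formed 2118 runs with no other WT H3K9me2 peak between them. Single sites made up 917 runs, and 280 runs of at least 5 held 1957 unreplaced peaks (37.2%, or 43.8% without H3K27me3 replicate 2). Runs lengthen with the share of unreplaced peaks, which was 53.9% and 61.5% in these settings, so the 2 values do not compare clustering. With such shares some long runs arise without clustering, and no baseline for runs is given, so run lengths alone do not show it. The longest run was on chromosome 5 from 18308808 to 18912699, with 23 peaks in 604 kb. Between its members lay 5 *ddm1* peaks of H3K9me2, 6 of H3K27me1, 22 of H3K9ac, and 27 and 44 of H3K27me3 in replicates 1 and 2, none of which touched a member. The run was thus not a stretch without *ddm1* peaks. The next longest run, on chromosome 10 from 16963816 to 18031673, was emptier. It had 20 peaks in 1068 kb, with 2 *ddm1* peaks of H3K9me2, 11 of H3K27me1, 11 of H3K9ac and 1 and 3 of H3K27me3. A run of 18 peaks on chromosome 1 from 45718702 to 47483489 spanned 1765 kb. All peaks of these 3 runs lay in H3K9ac-poor windows.

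Of the 6 windows with the most unreplaced peaks or the highest share, those on chromosomes 5, 10 and 1 overlapped these runs. Of the 808 windows, 725 held an unreplaced peak, and in the 526 windows with at least 10 WT H3K9me2 peaks the unreplaced share had a median of 54.5% (62.5% without H3K27me3 replicate 2) and ran from 8.33% to 100%. The most unreplaced peaks were on chromosome 5 from 18000001 to 19000000 (32 of 37), chromosome 3 from 15000001 to 16000000 (24 of 26) and chromosome 8 from 17000001 to 18000000 (23 of 29). H3K9me2 peaks covered 6.61 kb in *ddm1* and 40.8 kb in WT of the first, 3.33 kb and 26.7 kb of the second and 1.15 kb and 34.6 kb of the last. Over all chromosomes they covered 6.48 Mb in *ddm1* and 10.9 Mb in WT. The 6 windows were chosen by their unreplaced peaks, so low *ddm1* H3K9me2 coverage goes with the choice and is a description. The window shares reached 100% in 2 windows, chromosome 1 from 46000001 to 47000000 (10 of 10) and chromosome 10 from 17000001 to 18000000 (16 of 16). In the window on chromosome 1, H3K27me3 peaks of neither *ddm1* replicate were present, and *ddm1* H3K9ac covered 4.16 kb. On chromosome 7 from 25000001 to 26000000, 18 of 19 WT H3K9me2 peaks were unreplaced. H3K27me3 replicate 2 covered 92.6 kb of that 1 Mb window, a smaller share than the 16.0% it covered over all chromosomes.

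Most unreplaced peaks had a *ddm1* peak of some mark in their neighbourhood. The gap to the nearest *ddm1* peak of any list had a median of 3.96 kb (3.79 to 4.13), with 10% of gaps under 0.465 kb and 10% over 16.6 kb. It was 4.89 kb in H3K9ac-poor and 2.92 kb in H3K9ac-rich windows. A *ddm1* peak lay within 1 kb of 1045 unreplaced peaks (19.9%) and within 10 kb of 4194 (79.7%), and 3 unreplaced peaks were more than 100 kb from any. The rule requires every gap to be above 0, so these distances are a description. Without H3K27me3 replicate 2 the median was 4152.5 bp, against 3956 bp with it. The 5 *ddm1* lists together covered 21.8% of the chromosomes and touched 33.6% of 1 kb tiles outside WT H3K9me2 peaks. Gaps from such tiles were not measured, so this closeness is not shown to be particular to unreplaced peaks.

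The marks differed in how close they came. *ddm1* H3K9ac, the list with most peaks, was nearest, at a median of 8.83 kb (8.49 to 9.13). H3K27me3 followed at 19.1 kb in replicate 1 and 17.3 kb in replicate 2, then H3K27me1 at 26.4 kb (25.3 to 27.6) and H3K9me2 at 40.1 kb (38.1 to 41.9). The intervals of neighbouring marks in this order did not overlap, whereas those of the H3K27me3 replicates did (18.1 to 20.2 kb and 16.3 to 18.45 kb). These intervals count peaks and do not show that the replicates agree, which touched 219 and 1469 WT H3K9me2 peaks. The order was also that of the number of peaks per list. Other WT H3K9me2 peaks that a given list did not touch lay nearer to H3K9ac (a median of 6.74 kb) and H3K27me3 replicate 1 (9.85 kb). They lay farther from H3K27me1 (38.8 kb) and H3K9me2 (50.1 kb), and 16.3 kb from H3K27me3 replicate 2. The single nearest *ddm1* peak was H3K9ac for 1944 unreplaced peaks (37.0%), H3K27me3 replicate 2 for 1105 (21.0%), H3K27me1 for 1096 (20.8%), H3K9me2 for 728 (13.8%) and H3K27me3 replicate 1 for 387 (7.36%). H3K9me2 was the rarest list in *ddm1*, with 7361 peaks. Its median gap from these sites was 53.1 kb in H3K9ac-poor and 26.8 kb in H3K9ac-rich windows. Every other list also lay farther in H3K9ac-poor windows, and for H3K27me3 replicate 1 the medians were 25.8 and 12.9 kb.

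At short range the order was another one. Within 1 kb of an unreplaced peak, *ddm1* H3K9ac lay at 402 sites (7.64%), H3K9me2 at 278 (5.29%), H3K27me3 replicate 2 at 213 (4.05%), H3K27me1 at 212 (4.03%) and H3K27me3 replicate 1 at 46 (0.875%). At 5.29% of sites, then, H3K9me2 was still called in *ddm1* right beside a WT peak that met no *ddm1* peak. Of 1 kb tiles outside WT H3K9me2 peaks, 12.9% met *ddm1* H3K9ac, 1.37% H3K9me2 and 1.20% H3K27me1. For H3K27me3 the tile shares were 6.76% in replicate 1 and 20.7% in replicate 2. H3K9ac and H3K27me3 were thus below their tile shares. The background is not matched, since the margin has 2 sides and the rule removes touched sites.

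**Figure D4:**
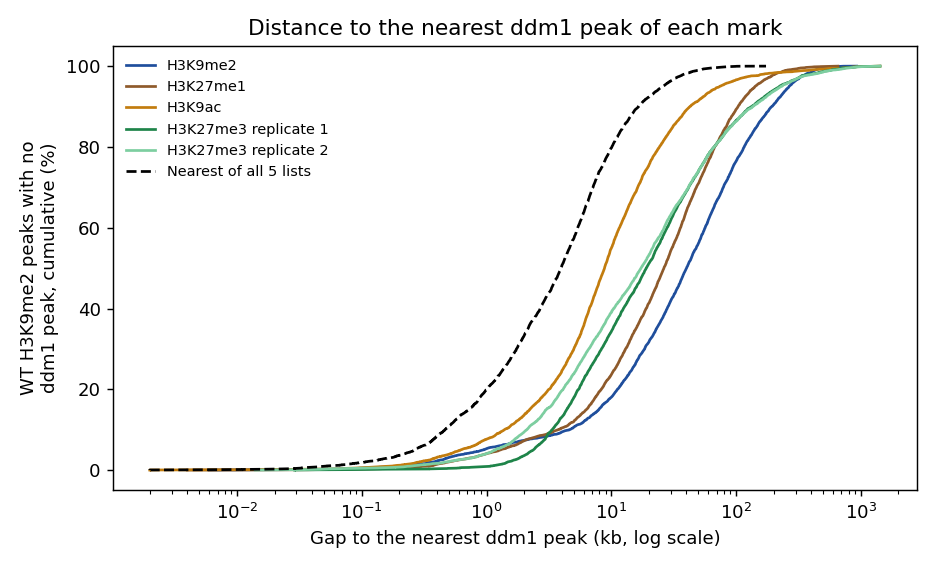
Cumulative share (y axis, %) of the 5260 WT H3K9me2 peaks with no ddm1 peak by gap to the nearest ddm1 peak of each list (x axis, kb, log scale). The dashed line is the nearest peak of any list, with a median of 3.96 kb. H3K9ac reaches 50% first among the marks, at 8.83 kb, and H3K9me2 last, at 40.1 kb.

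The sites farthest from any *ddm1* peak were all in H3K9ac-poor windows, with folds of 1.82 to 1.99, below the median of 2.08 over unreplaced peaks. The most isolated lay on chromosome 1 from 46592898 to 46593690 (fold 1.93), 173860 bp from the nearest *ddm1* peak, which was H3K9ac. On chromosome 3 from 13929879 to 13930891 (fold 1.95) the nearest was H3K27me1 at 108930 bp. The other 3 were on chromosome 5, from 49924111 to 49925647, from 36746631 to 36747446 and from 49940339 to 49941093, at 100583, 99541 and 95323 bp. The first and last of these are neighbours, 14691 bp apart.

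The unreplaced peaks nearest to a *ddm1* peak were on chromosome 9 from 46488042 to 46488761 and chromosome 12 from 15855467 to 15856267, each 2 bp from H3K9ac, and chromosome 2 from 22121157 to 22122724, 4 bp from H3K27me1. The peaks that just missed the set met H3K9ac by 2 bp on chromosome 5 from 35476115 to 35477429 and chromosome 7 from 15462562 to 15463347, and by 4 bp on chromosome 4 from 39618403 to 39619379. The sites just inside had folds of 2.36, 1.99 and 2.65 and those just outside 2.34, 1.84 and 1.80, so these few sites did not follow the order of the medians over all peaks.

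The flanks of unreplaced peaks were poorer in WT H3K9ac and WT H3K27me3 than those of all other WT H3K9me2 peaks pooled. The rule did not use these WT lists but is not independent of them. Of WT H3K9ac peaks 25.6%, and of WT H3K27me3 peaks 47.7%, shared no base with any *ddm1* list. From 20 to 30 kb beyond the peak edges, WT H3K9ac covered 1.66% around unreplaced peaks and 2.25% around the others, and WT H3K27me3 covered 4.19% and 4.90%. With the set defined without *ddm1* H3K27me3 replicate 2 the values were 1.54% and 2.56% for WT H3K9ac and 4.15% and 5.11% for WT H3K27me3. Flank coverage was not measured by class, but gaps were. The nearest WT H3K27me3 peak was a median of 34.4 kb from unreplaced peaks. It was 32.1 kb from the H3K9ac class, 32.2 kb from the H3K27me1 class and 30.7 kb from the H3K27me3 class. It was 16.6 kb from the class in which H3K9me2 was called again. The WT H3K9ac gaps given above were likewise short only for that class. Coverage by the *ddm1* lists is a description, since the same lists chose the sites and H3K27me3 peaks of replicate 2 reach 185363 bp, so a peak that touched a WT site can also cover its flanks. At the same distance, *ddm1* H3K27me3 covered 2.53% in replicate 1 and 12.4% in replicate 2 around unreplaced peaks, against 3.29% and 21.7% around the others. For *ddm1* H3K9ac the values were 3.63% and 4.47%, for *ddm1* H3K9me2 0.918% and 1.03%, and for *ddm1* H3K27me1 0.322% and 0.297%. Within 5 kb of unreplaced peaks, *ddm1* H3K9ac covered 1.91% and H3K27me3 1.54% and 4.50% in replicates 1 and 2.

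**Figure D5:**
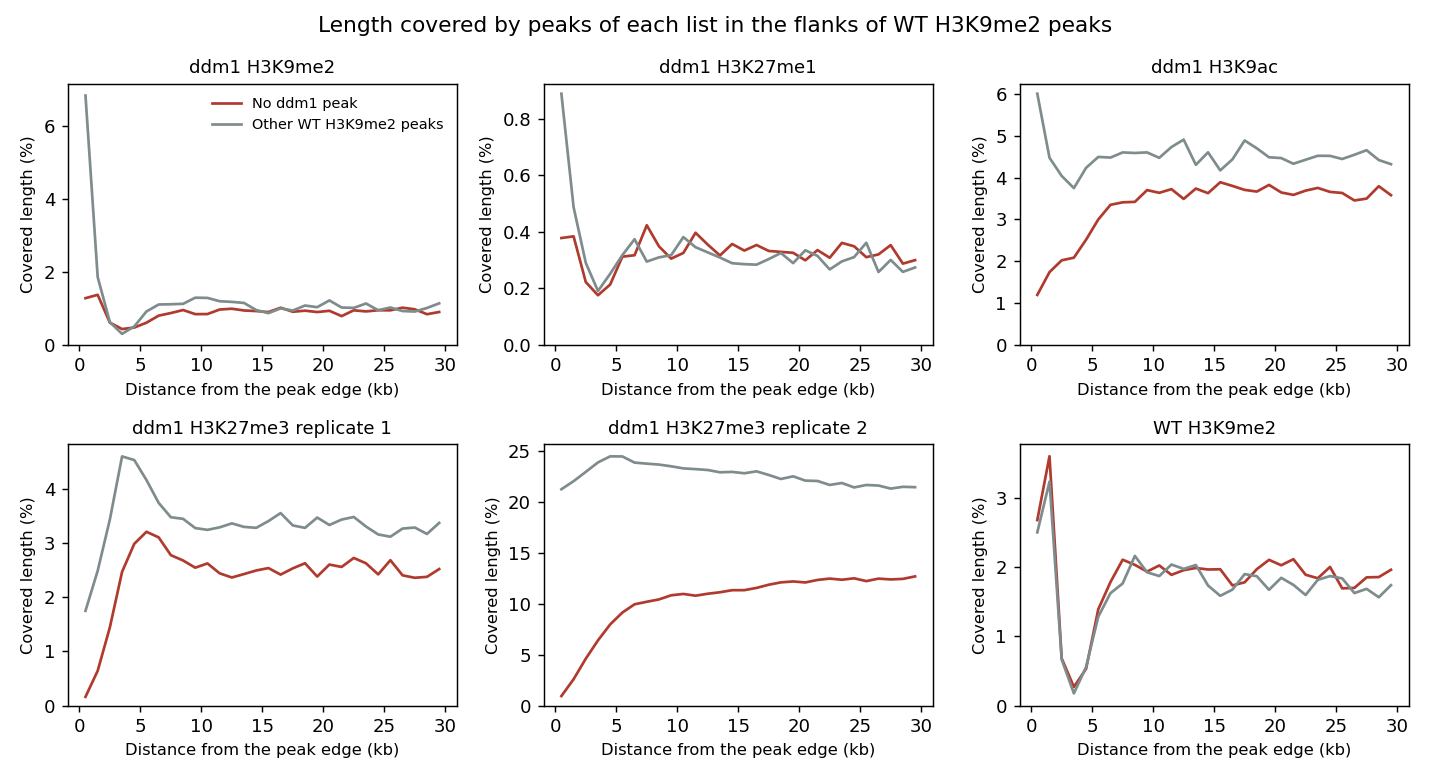
Length covered by peaks of each list (y axis, %) in 1 kb steps from the edges of WT H3K9me2 peaks (x axis, kb), for peaks with no ddm1 peak (red) and other peaks (grey), both sides pooled. The ddm1 lists also chose the sites, so the distance between the lines in their panels is a description (12.4% and 21.7% from 20 to 30 kb for H3K27me3 replicate 2). The lines for WT H3K9me2 run close together.

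Gene and transposable element content of these sites was not analysed here, because no annotation of the M82 assembly was used. The set was defined on 1 WT H3K9me2 list, so how many of its sites would be called again in a second WT plant was not tested.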

How the data were processed

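The data were 9 ChIP-seq peak lists from leaves of 1-month-old *ddm1* and WT tomato plants. Per the labels and the methods, the authors trimmed reads with Trimmomatic 0.38, aligned them with Bowtie2 (2.3.5 in the labels) to the M82 V1.0 assembly, used SAMtools 1.9 and called peaks with MACS3 at a q-value threshold of 0.05. The control and any pooling of replicates are not given in the sources used here. Each deposited list gives start, end, a fold enrichment (a ratio to the local background), −log10 p, −log10 q and a whole-number score made from the q-value. H3K9me2 and H3K27me3 lists had the broad layout, in which values are means over the peak. In the WT H3K9me2 list 4.56% of peaks had a mean q above 0.05.

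Peaks on 12 chromosomes were used, and 1 shared bp counted as overlap. A gap is the number of bases between peak edges. Chromosome ends were the last peak end in any list (802 Mb in all). H3K9ac-poor windows numbered 409 of 808. Shares have Wilson intervals, their differences Newcombe intervals, and medians exact binomial intervals combined in the same way. No test was made. Overlap, gap and interval code was tested on simulated peaks. Python 3.11.15, NumPy 2.4.6, pandas 2.3.3, SciPy 1.17.1 and statsmodels 0.14.6 were used. Alternatives were a q of 0.01 or lower, 50% overlap, a margin of 1000 bp, 1 minimum length for H3K9me2, and leaving out each H3K27me3 replicate.

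Named sites are the 5 widest, the 5 strongest and the 5 most isolated, the 3 longest runs, the 3 windows with most members and the 3 with the highest share, and 3 sites on each side of the rule's edge. The members, windows and measures were chosen with earlier results of these data known.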

Additional observations from a re-analysis of the deposited data

How the results depend on the processing

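The share of unreplaced peaks depended most on what counts as an overlap: it was 75.8% when a *ddm1* list had to cover at least 50% of the WT peak and 43.2% when peaks within 1000 bp of a *ddm1* peak also left the set. It was 61.2% at a q of 0.01 or lower in all lists, 47.1% with that threshold in the WT list alone and 57.4% with 1 minimum length for both H3K9me2 lists. The difference in median width was -120 bp, -168.5 bp and -66.5 bp at the strict q in all lists, at the strict q in the WT list and with the 1000 bp margin, and it reversed to 11 bp with 50% overlap. The difference in median fold was -0.118 and -0.124 at the strict q in all lists and in the WT list. The difference in the share in H3K9ac-poor windows was 9.87 points at the strict q in the WT list and 3.35 points with 1 minimum length. The difference in the share with an unreplaced neighbour was 9.16 and 10.4 points at the strict q in all lists and in the WT list, 19.0 points with 50% overlap and 20.3 points with the margin. The median gap to a *ddm1* peak was 5024 bp and 4152 bp at the strict q, 1723 bp with 50% overlap, 5375 bp with the margin and 4315 bp with 1 minimum length. Among these differences, no other sign changed. The cause of these shifts was not tested.

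Without H3K27me3 replicate 1 or 2, the share ranged from 54.2% to 61.5%, the width difference from -127 to -93 bp, the fold difference from -0.0937 to -0.0847, the H3K9ac-poor difference from 5.52 to 10.5 points, the neighbour difference from 11.3 to 16.8 points and the median gap from 4067 to 4152.5 bp. The values for classes, runs, windows and flanks without replicate 2 were added after seeing the data. No paired analysis was possible because only the *ddm1* H3K27me3 group has numbered replicates. The other groups had 1 list, and whether it pools plants is not given, so differences between plants were not measured, and the unknown depth limits what an uncalled peak shows.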

Other observations

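Around both unreplaced and other WT H3K9me2 peaks, further WT H3K9me2 peaks were not spread evenly. They covered 3.60% of the length from 1 to 2 kb beyond the edges of unreplaced peaks and 3.23% beyond those of the others, but 0.268% and 0.175% from 3 to 4 kb, and 2.03% and 2.16% from 8 to 9 kb. *ddm1* H3K9me2 and H3K27me1 had a trough at the same distance, with 0.431% and 0.175% around unreplaced peaks from 3 to 4 kb and 0.951% and 0.348% from 8 to 9 kb. WT H3K27me3 went the other way and was higher around unreplaced peaks from 3 to 4 kb (4.73%) than from 1 to 2 kb (1.51%).

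On chromosome 1, the window from 46000001 to 47000000 held 10 WT H3K9me2 peaks, all unreplaced, 0.513 kb of *ddm1* H3K9me2, 1.24 kb of *ddm1* H3K27me1 and no *ddm1* H3K27me3 peak, and it held the most isolated unreplaced peak.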
